A study of Mus musculus with 33 samples.

Results

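Transcript levels of 40 genes of glycolysis and of the hypoxia response were followed through embryoid body (EB) differentiation in mouse embryonic stem (ES) cells. The genes were taken by symbol from a written list, and all 40 are among the 16336 genes of the table. RNA was sequenced from E14Tg2a, a wild-type ES line of strain 129/Ola, and from its derivatives ΔK9.1 and ΔK9.2, which carry a homozygous CRISPR/Cas9 deletion between the enhancer and the promoter of *Nanog*, where the histone mark H3K9me3 lies. Each derivative is 1 clone, so the deletion and the clone cannot be told apart within a line. ES cells (day 0) were grown on gelatine in DMEM with FCS and LIF. For differentiation they first grew into aggregates on gelatine, still with LIF. The aggregates were loosened by brief trypsin treatment and kept floating without LIF in non-adherent dishes until day 4, then plated at very low density on gelatine without LIF and collected on days 6 and 8. The 12 groups of line and day hold 3 replicates each on days 0, 4 and 8 and replicates 2 and 3 on day 6, 33 libraries in all. The study left out libraries that were outliers in a principal component analysis, and the sources used here do not say whether replicate 1 of day 6 was among them.

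Levels are given in TPM, a length-scaled share of all transcripts that has the same total in every library. The values do not give the read depth of single libraries, for which the study states only an approximate common figure. The listed genes summed to between 994284 and 998266 TPM per library, and Pearson's r between libraries of a group, on log2(TPM + 1) over all genes, was 0.960 to 0.988. *Nanog* stood at 326 to 368 TPM in E14Tg2a and at 412 to 486 TPM in the 6 clone libraries on day 0, and it does not check the deletion, which lies outside its transcript. ES cell identity was checked on day 0 with 7 pluripotency markers (*Pou5f1*, *Sox2*, *Zfp42*, *Esrrb*, *Klf4*, *Tfcp2l1* and *Tbx3*). They summed to 2842 to 3433 TPM over all 9 libraries. Markers of primitive and visceral endoderm, listed below, were highest in replicate 1 of each line on day 0. They summed to 75.9, 6.31 and 8.62 TPM in replicates 1, 2 and 3 of E14Tg2a. In ΔK9.1 they summed to 7.84, 3.86 and 3.75 TPM and in ΔK9.2 to 38.4, 2.87 and 4.35 TPM. Each change below is a log2 fold change of TPM + 1 given as the change ± its standard error (SE) and fitted with limma to all libraries. A gene was called between days at an adjusted p under 0.05 and an absolute log2 fold change above 1, and between lines at the same p and a change above 0.3. In bulk RNA, fewer cells of a type and less RNA per cell cannot be told apart.

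Glycolysis splits glucose into pyruvate, and lactate dehydrogenase can turn the pyruvate into lactate for export, which yields ATP without oxygen. The hypoxia-inducible factors are pairs of an oxygen-labile alpha subunit and a stable partner. Prolyl hydroxylases mark the alpha subunit for destruction while oxygen is present, and when oxygen falls the factor binds a short core motif near genes of glycolysis, vessel growth and matrix synthesis. ES cells are known for a high rate of glycolysis, and aggregates are known to limit the diffusion of oxygen.

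The 40 genes fall into 12 roles. Glucose enters through *Slc2a1* and is prepared by the hexokinases *Hk1* and *Hk2*, the isomerase *Gpi1* and the phosphofructokinases *Pfkl*, *Pfkm* and *Pfkp*, whose activator fructose-2,6-bisphosphate is set by *Pfkfb3* and *Pfkfb4*. The aldolases *Aldoa* and *Aldoc* and the isomerase *Tpi1* make the 3-carbon sugars, and *Gapdh*, *Pgk1*, *Pgam1*, *Eno1*, *Eno2* and *Pkm* carry them to pyruvate. *Ldha* and *Ldhb* interconvert pyruvate and lactate, and *Slc16a1* and *Slc16a3* carry lactate across the membrane. The kinases *Pdk1* and *Pdk3* inhibit pyruvate dehydrogenase, the mitochondrial enzyme that uses pyruvate. The hypoxia arm has the alpha subunits *Hif1a* and *Epas1* (HIF-2α), their hydroxylases *Egln1* and *Egln3*, the collagen hydroxylases *P4ha1* and *P4ha2*, the secreted factors *Vegfa* (vessel growth) and *Adm* (adrenomedullin, a vasodilator), the mitochondrial proteins *Bnip3* and *Higd1a*, and *Ankrd37*, *Ndrg1*, *Kdm3a* (a histone demethylase), *Ddit4* (REDD1, an inhibitor of mTORC1), *Mxi1* (a MYC antagonist) and *Bhlhe40* (a transcriptional repressor).

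The core of the hypoxia response element, searched as ACGTG or GCGTG on both strands (CACGT or CACGC when read on the other strand), was common upstream of these genes. Of the 37 genes with an upstream sequence in RefSeq (GRCm38.p6), 34 (91.9%) held at least 1 core within the 250 bases before a transcription start, against 6879 of 11453 listed genes with such a sequence (60.1%) and 11226 of 27025 genes in all (41.5%). *Epas1*, *Ndrg1* and *Bhlhe40* had no entry. By promoter rather than gene, 43 of 55 held a core (78.2%), against 54.1% of the 14654 promoters of listed genes. The palindrome CACGTG counts as a match on each strand. A match is a description of the letters and not of a bound site. Upstream stretches are given for 3 genes that rose by day 4 (*Ddit4*, *Adm* and *Pfkm*) and for 2 that were lower in the clones on day 8 (*P4ha1* and *Slc16a1*), 5′ to 3′ on the gene's strand with the cores in capitals. They lie, on GRCm38.p6, at chr10:59951835-59952020, minus strand (*Ddit4*), chr7:110627407-110627656, plus strand (*Adm*), chr15:98092339-98092588, plus strand (*Pfkm*), chr10:59323046-59323295, plus strand (*P4ha1*) and chr3:104638414-104638663, plus strand (*Slc16a1*).
Ddit4 upstream: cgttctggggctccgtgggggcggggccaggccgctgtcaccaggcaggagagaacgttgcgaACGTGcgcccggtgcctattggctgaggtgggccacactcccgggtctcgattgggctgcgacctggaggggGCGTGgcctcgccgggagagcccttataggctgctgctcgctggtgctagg
Adm upstream: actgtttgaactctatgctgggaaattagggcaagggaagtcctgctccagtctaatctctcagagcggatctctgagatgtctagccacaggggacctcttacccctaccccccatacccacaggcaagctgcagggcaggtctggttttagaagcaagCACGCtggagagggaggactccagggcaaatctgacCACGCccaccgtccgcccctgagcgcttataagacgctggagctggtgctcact
Pfkm upstream: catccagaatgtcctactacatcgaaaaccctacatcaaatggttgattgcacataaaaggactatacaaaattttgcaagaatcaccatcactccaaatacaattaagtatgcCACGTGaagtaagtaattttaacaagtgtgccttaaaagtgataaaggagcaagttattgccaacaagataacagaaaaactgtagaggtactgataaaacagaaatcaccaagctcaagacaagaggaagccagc
P4ha1 upstream: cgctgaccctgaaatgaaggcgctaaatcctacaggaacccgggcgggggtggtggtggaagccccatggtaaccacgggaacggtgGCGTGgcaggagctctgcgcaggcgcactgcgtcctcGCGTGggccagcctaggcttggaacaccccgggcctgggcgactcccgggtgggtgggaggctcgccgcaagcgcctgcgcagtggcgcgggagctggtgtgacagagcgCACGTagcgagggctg
Slc16a1 upstream: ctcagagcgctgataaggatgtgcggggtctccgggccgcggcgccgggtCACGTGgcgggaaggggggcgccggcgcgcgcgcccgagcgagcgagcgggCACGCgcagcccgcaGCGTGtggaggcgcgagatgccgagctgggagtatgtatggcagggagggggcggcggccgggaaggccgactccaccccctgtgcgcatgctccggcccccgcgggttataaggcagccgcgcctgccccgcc

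The *Adm* cores began 90 and 54 bases before the start, and those of *P4ha1* 163, 126 and 16 bases before it. RefSeq lists 4 starts for *Pfkm*, of which the most upstream is printed; there 1 palindrome accounted for both matches, and the other starts held 2, 1 and 0 cores. *Ddit4* had 2 cores, and *Slc16a1* had a palindrome and 2 further cores. Every one of the 12 hypoxia-induced genes with an entry held a core before at least 1 listed start. Among the 17 glycolytic enzymes and lactate dehydrogenases 14 did. By promoter, 13 of 17 held a core in the first set and 21 of 28 in the second. For *Vegfa* the stretch before the most upstream start held 0 cores. Its 2 cores lay before a listed start within the gene.

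By group mean in E14Tg2a, 19 of the 40 genes were highest on day 4 and 15 on day 8, against 5 on day 0 and 1 on day 6, and 16 were lowest on day 6. The day of the highest mean was the same in all 3 lines for 29 of 40 genes. A higher mean on day 4 than on day 0, followed by a lower mean on day 6, was seen for 27 genes in the wild type, for 21 of ΔK9.1 and for 26 of ΔK9.2, as descriptions of group means with no test.

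**Figure D1:**
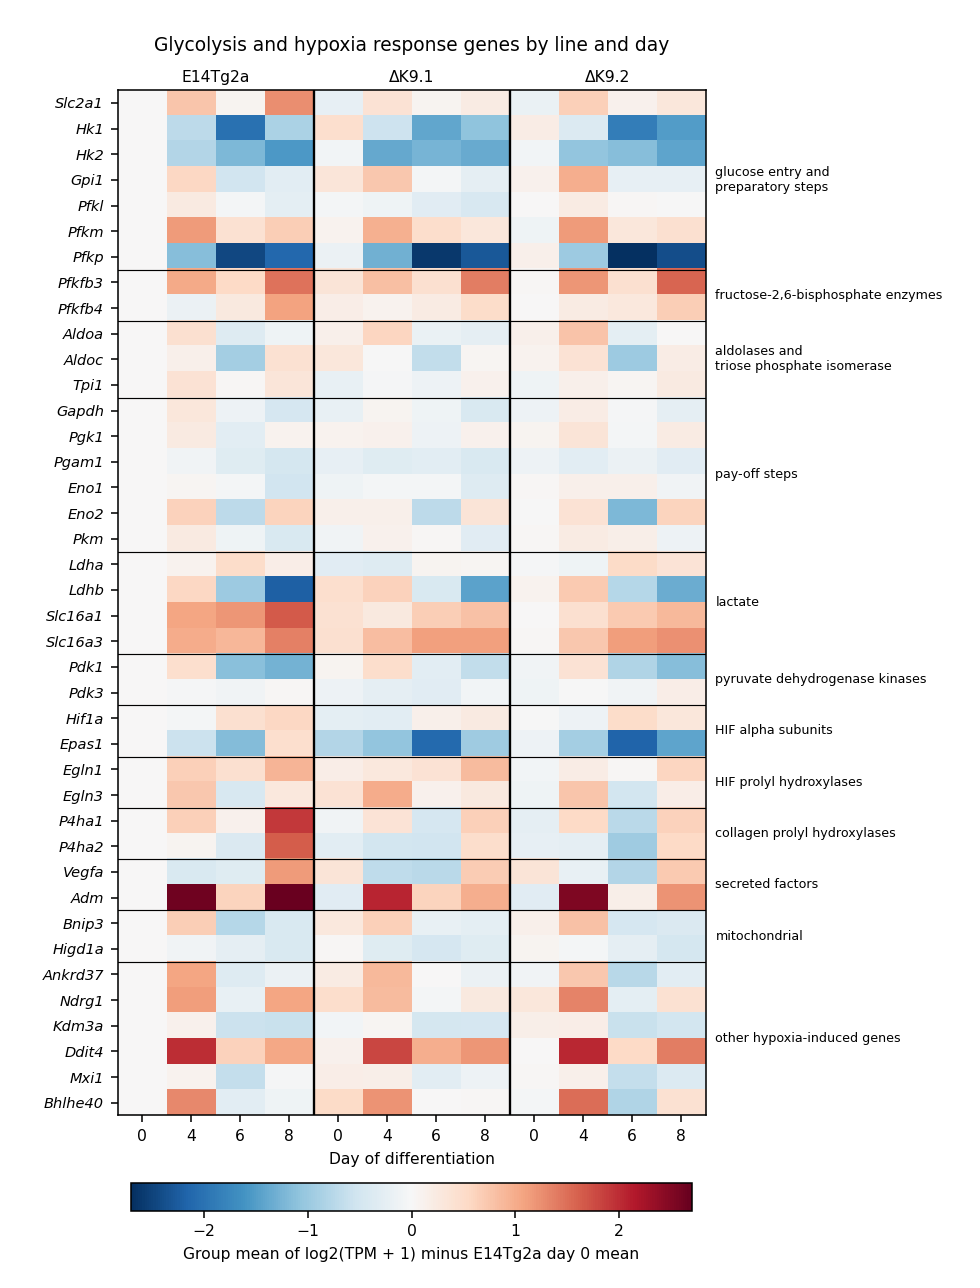
Group means of log2(TPM + 1) minus the E14Tg2a day 0 mean, with the 40 genes in rows ordered by role and the 3 lines and 4 days in columns; red is higher and blue lower than E14Tg2a day 0. *Adm*, *Ddit4* and *Bhlhe40* are red on day 4 in all 3 lines, *Pfkp* and *Hk2* turn blue, and *P4ha1*, *P4ha2* and *Slc2a1* are redder on day 8 in E14Tg2a than in the clones.

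The 17 enzymes from hexokinase to lactate dehydrogenase were abundant throughout. On days 0, 4, 6 and 8 they summed in E14Tg2a to 19133 ± 675 (SD, n = 3), 22597 ± 646 (n = 3), 17416 ± 59.7 (n = 2) and 15690 ± 2132 TPM (n = 3), which is 1.91%, 2.26%, 1.74% and 1.57% of all transcripts. The 3 day 4 libraries lay above every other E14Tg2a library. The 14 hypoxia-induced genes summed to 834 ± 223, 1514 ± 188, 715 ± 35.5 and 1123 ± 114 TPM on the same days, so their summed level on day 4 was 1.82 times that on day 0, or 1.39 times without *Ddit4*, the most abundant of them. In both clones together the enzymes stood at 18351 ± 961 (n = 6), 21384 ± 1628 (n = 6), 18325 ± 942 (n = 4) and 16876 ± 2718 TPM (n = 6).

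**Figure D2:**
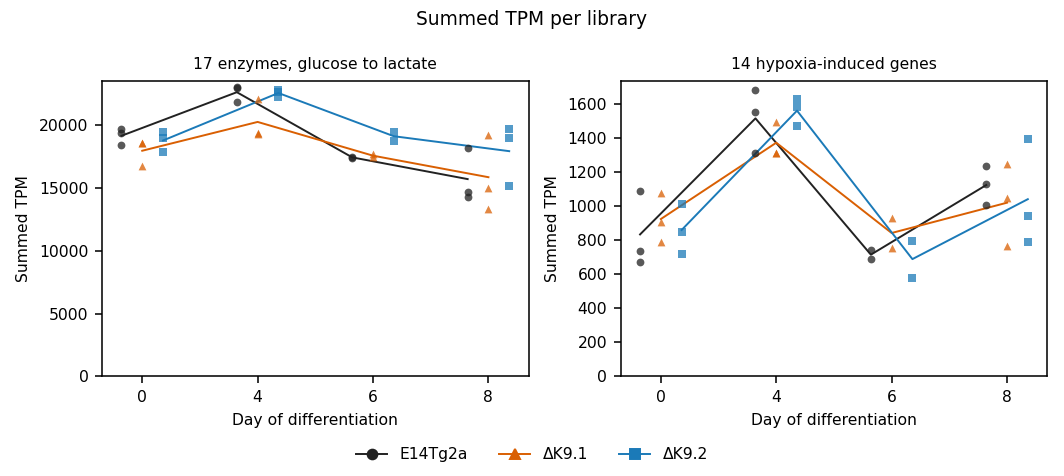
Summed TPM per library against the day of differentiation for the 17 enzymes (left) and the 14 hypoxia-induced genes (right); points are libraries, lines join group means, and colours and symbols mark the 3 lines. Both sums are highest on day 4 in every line, where the hypoxia-induced genes of E14Tg2a reach a mean of 1514 TPM.

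From ES cells to day 4 aggregates, 8 of the 40 genes rose and 1 fell in E14Tg2a, where 3.67% of all genes tested were called higher and 4.07% lower. The median change of the 40 was 0.34, against -0.07 over all genes. The largest rises were in hypoxia-induced genes. *Adm* stood at 3.34, 0.309 and 0.142 TPM on day 0 and at 11.8, 8.19 and 12.1 TPM on day 4, a change of 2.63 ± 0.49, adjusted p = 0.000316. *Ddit4* stood at 208, 113 and 107 and then 506, 482 and 667 TPM (2.00 ± 0.28, adjusted p = 8.78e-06), and *Bhlhe40* at 35.1, 17.2 and 16.6 and then 41.1, 59.9 and 65.0 TPM (1.29 ± 0.29, adjusted p = 0.00175). For all 3 genes replicate 1 was the highest day 0 library, and still every day 4 library lay above it. Over the same step in E14Tg2a the 7 pluripotency markers summed to 2949 to 3433 and then 1593 to 2001 TPM, and 10 markers of primitive and visceral endoderm (*Gata4*, *Gata6*, *Sox17*, *Foxa2*, *Sox7*, *Ttr*, *Afp*, *Apoa1*, *Amn* and *Cubn*) to 6.31 to 75.9 and then 83.3 to 694 TPM, and the part of this shift in the changes was not tested.

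*Ankrd37* (1.07 ± 0.26) and *Ndrg1* (1.14 ± 0.35) rose too, although the *Ndrg1* libraries of the groups overlapped. Among glycolytic genes *Pfkm*, the muscle-type phosphofructokinase, rose from 25.8, 21.8 and 21.7 TPM to 49.8, 53.0 and 54.2 TPM (1.15 ± 0.12, adjusted p = 2.80e-07), and *Pfkfb3* (1.02 ± 0.30) and *Slc16a1* (1.06 ± 0.16) rose with it. *Pfkp*, the platelet-type phosphofructokinase, went the other way, from 250.1, 246 and 193 TPM to 131, 100.1 and 82.5 TPM (-1.14 ± 0.31, adjusted p = 0.00706). Of the other glycolytic genes, *Slc2a1* (0.76 ± 0.19), *Slc16a3* (0.99 ± 0.24), *Gpi1* (0.57 ± 0.16), *Aldoa* (0.44 ± 0.14) and *Gapdh* (0.30 ± 0.10) had positive changes and *Hk2* (-0.80 ± 0.18) and *Hk1* (-0.70 ± 0.26) negative ones with an adjusted p under 0.05, below the fold minimum. Leaving out 1 library ended the call of *Ankrd37* (0.89 without replicate 2 of day 0), *Slc16a1* (0.83 without replicate 1 of day 4) and *Pfkp* (-0.99 without replicate 3 of day 4). For *Ndrg1* and *Pfkfb3* the call ended without any of 3 libraries, replicate 1 of day 4 or replicate 2 or 3 of day 0, with adjusted p up to 0.139 and 0.101. *Slc16a3* was called with median ratio rescaling (1.07). It was also called without replicate 1 of day 0 (1.37), replicate 2 of day 4 (1.04) or replicate 3 of day 4 (1.09).

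In the mean of both clones 4 genes rose and 2 fell over the same step, where 1.88% of all genes were called higher and 4.08% lower. *Adm* (2.59 ± 0.35), *Ddit4* (1.87 ± 0.19), *Bhlhe40* (1.12 ± 0.21) and *Pfkm* (1.08 ± 0.09) rose, and *Hk2* (-1.15 ± 0.13) and *Pfkp* (-1.12 ± 0.22) fell. Taken alone, ΔK9.1 had 2 genes that rose and 4 that fell, and ΔK9.2 had 6 and 1, where 880.0 and 1245 of 16336 genes were called in either direction. The *Ddit4* level went from 112 to 200.2 TPM in the 6 clone libraries to 430.5 to 708 TPM. The median of all genes over this step was -0.19 in the clones and -0.01 when each library was rescaled by its median ratio to the others. After rescaling *Pfkfb3* joined the genes that rose (1.04), and *Hk2* (-0.92) and *Pfkp* (-0.88) missed the fold minimum, so the split was 5 higher and 0 lower. No gene of the 40 was called for a different change in the clones than in E14Tg2a (1 gene at an unadjusted p under 0.05, against 1421 of all 16336), in a comparison that called 0.0184% of all genes. *Slc16a1* was called in it without replicate 2 of E14Tg2a on day 4 (-1.15, adjusted p = 0.00174).

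**Figure D3:**
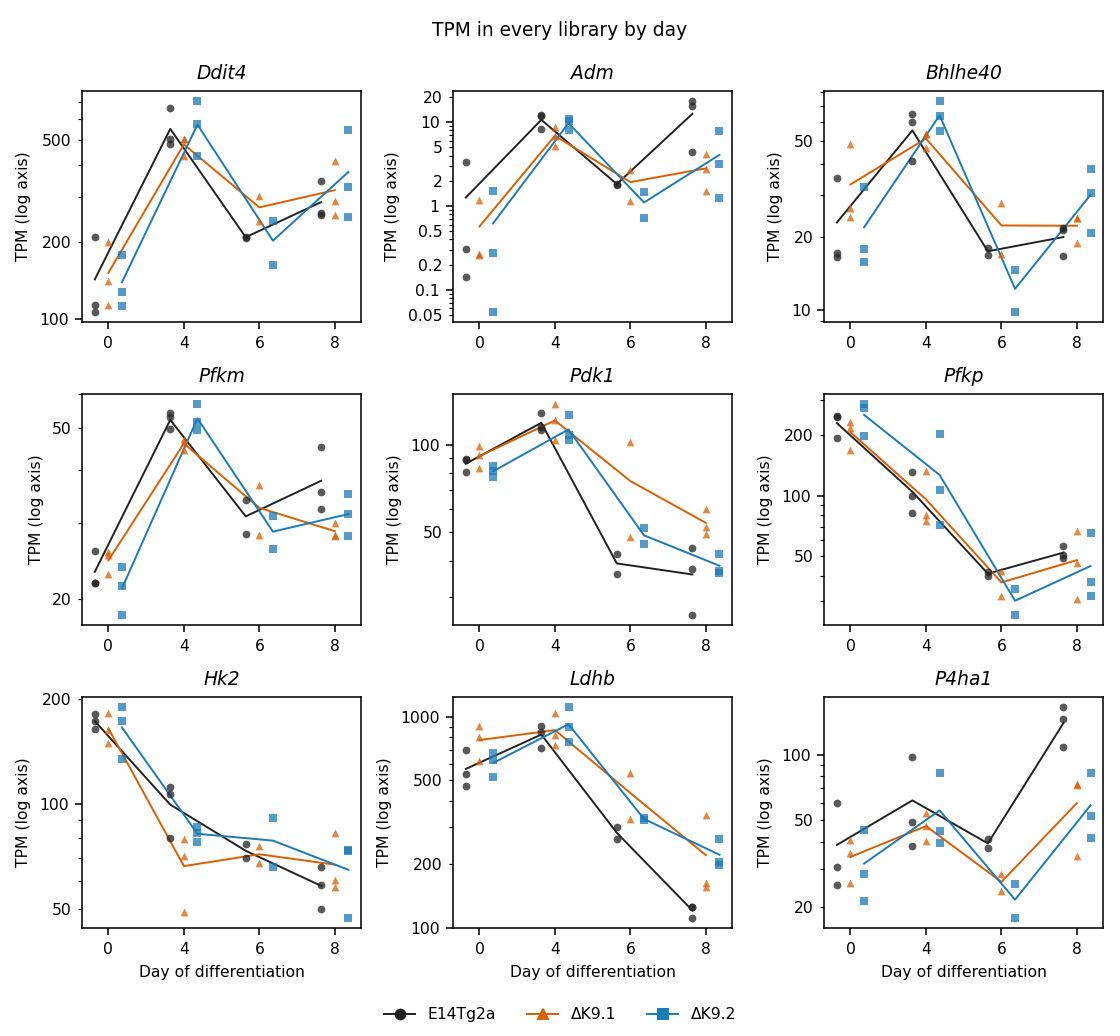
TPM on a log axis in every library against the day of differentiation for 9 genes; points are libraries, lines join group means, and colours and symbols mark the 3 lines. *Ddit4*, *Bhlhe40* and *Pfkm* have their highest means on day 4 in all lines, *Adm* has it on day 4 in the clones and on day 8 in E14Tg2a, *Hk2*, *Pfkp* and *Ldhb* end below their day 0 levels, and the E14Tg2a libraries of *P4ha1* reach 108 to 165 TPM on day 8.

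Between day 4 and day 6, when the aggregates were plated, 14 of the 40 genes fell in E14Tg2a and 0 rose, where 4.14% of all genes were called lower and 5.19% higher. The median change of the 40 was -0.55, against 0.06 over all genes. The genes that fell were *Adm*, *Bhlhe40*, *Bnip3*, *Ankrd37*, *Ddit4*, *Ndrg1* and *Egln3* of the hypoxia arm and *Pdk1*, *Ldhb*, *Hk1*, *Eno2*, *Pfkp*, *Gpi1* and *Aldoc* of glucose use. The day and the change of culture cannot be told apart. Mesoderm markers (*T*, *Mixl1*, *Mesp1*, *Eomes*, *Hand1* and *Tbx6*) summed to 7.91 to 15.1 TPM on day 4 and 549.9 to 635 TPM on day 6, and the 7 pluripotency markers to 1593 to 2001 and 992 to 1115 TPM; the part of this shift in the 14 changes was not tested.

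*Pdk1*, a pyruvate dehydrogenase kinase, went from 129, 115 and 113 TPM on day 4 to 36.1 and 42.2 TPM on day 6 (-1.58 ± 0.20, adjusted p = 8.04e-06). *Ldhb* went from 909, 853 and 713 to 264 and 300.3 TPM (-1.54 ± 0.26, adjusted p = 0.000171). Neither pair of groups overlapped. *Adm* dropped back to 1.86 and 1.80 TPM (-2.03 ± 0.55, adjusted p = 0.00937) and *Bhlhe40* to 16.9 and 18.0 TPM (-1.59 ± 0.33, adjusted p = 0.00103), each below all 3 day 4 libraries. *Bnip3*, which targets mitochondria for removal, changed by -1.43 ± 0.25, *Ddit4* by -1.39 ± 0.31 and *Gpi1* by -1.08 ± 0.18. *Hif1a* itself had a positive change with an adjusted p under 0.05 that was below the fold minimum (0.48 ± 0.17).

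With 2 libraries on day 6, single libraries mattered. Without replicate 2 of day 6 the count fell from 14 to 8, and the calls of *Adm*, *Egln3*, *Eno2*, *Ndrg1*, *Pfkp* and *Aldoc* were lost. Without replicate 3 of day 6 *Adm*, *Egln3* and *Eno2* were lost, without replicate 1 of day 4 *Gpi1*, *Aldoc* and *Ndrg1*, and without replicate 2 of day 4 *Eno2*. Fitted on its own libraries only, *Adm* had an adjusted p of 0.0508. Day 6 has no replicate 1 here, and on day 4 replicate 1 was the highest of its group for 22 (E14Tg2a), 33 (ΔK9.1) and 27 (ΔK9.2) of the 40 genes, against 38.4%, 44.6% and 49.3% of all genes whose group mean reached 1 TPM. In a fit of replicates 2 and 3 only on every day, chosen after the data were seen, 11 genes fell in E14Tg2a, again without *Gpi1* (-0.92), *Aldoc* (-0.87) and *Ndrg1* (-0.97), and 10 in the clones. The part of the absent replicate in these falls beyond this fit was not tested.

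In the clones 15 genes fell and 0 rose over this step, where 3.64% of all genes were called lower and 4.31% higher. *Bhlhe40* (-1.76 ± 0.23), *Pfkp* (-1.62 ± 0.24), *Ldhb* (-1.25 ± 0.18) and *Hk1* (-1.17 ± 0.20) were among them, and so were *Epas1* (-1.14 ± 0.28) and *P4ha1* (-1.04 ± 0.29), which were not called in E14Tg2a. The *Epas1* call ended on the omission of 1 library (-0.98), and that of *P4ha1* on the omission of any of 4 (-0.99 to -0.88). When the replicate number entered as a block the count was 10, since *Aldoc*, *Bnip3*, *Egln3*, *Gpi1* and *P4ha1* came to changes between -0.99 and -0.89, and without replicate 2 of ΔK9.1 on day 6 it was 9. Each clone taken alone gave 3 (ΔK9.1) and 17 (ΔK9.2) genes that fell, where 875 and 1618 of 16336 genes were called in either direction. The difference of change between the clones and E14Tg2a was called for 0 of 40 genes (1 at an unadjusted p under 0.05, against 1113 of all 16336), where 0.0857% of all genes were called. In ΔK9.1 the day 6 libraries were apart for several genes, with *Pdk1* at 48.1 and 102 TPM and *Ldhb* at 329 and 542 TPM in replicates 2 and 3. The mesoderm markers of these libraries summed to 509 TPM in replicate 2 and 67.4 TPM in replicate 3, against 395 and 434 TPM in ΔK9.2, and the part of this gap in the clone changes was not tested.

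From day 6 to day 8 6 genes of the hypoxia arm rose in E14Tg2a, led by others than on day 4 except for *Adm*. Of the 40 genes 10 rose and 1 fell, where 6.53% of all genes were called higher and 2.73% lower, and the median change was 0.34 against 0.05 over all genes. Among the collagen hydroxylases *P4ha1* stood at 37.4 and 41.1 TPM on day 6 and 108, 165 and 145 TPM on day 8 (1.78 ± 0.40, adjusted p = 0.00223), and *P4ha2* at 21.2 and 15.7 and then 75.7, 102 and 58.8 TPM (2.02 ± 0.51, adjusted p = 0.00547). *Adm* came back to 4.46, 15.4 and 17.8 TPM (2.07 ± 0.55, adjusted p = 0.00754). *Epas1*, the HIF-2α gene, went from 3.10 and 2.78 to 12.2, 12.5 and 8.77 TPM (1.61 ± 0.40, adjusted p = 0.00418). For these 4 genes every day 8 library lay above both day 6 libraries.

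*Vegfa* rose as well, from 35.9 and 36.3 TPM to 105, 98.5 and 102 TPM (1.47 ± 0.35, adjusted p = 0.00312). So did *Slc2a1*, the main glucose carrier of many cells, from 279.6 and 296 TPM to 684, 679 and 595 TPM (1.18 ± 0.22, adjusted p = 0.000398), and *Aldoc* (1.32 ± 0.27), *Eno2* (1.29 ± 0.39), *Ndrg1* (1.26 ± 0.39) and *Hk1* (1.17 ± 0.29). *Ldhb* fell further, to 125, 111 and 126 TPM (-1.21 ± 0.26, adjusted p = 0.00141). Of the genes that led on day 4, *Ddit4* (0.44 ± 0.31), *Bhlhe40* (0.18 ± 0.33) and *Ankrd37* (0.20 ± 0.29) were not called. Markers of other cells moved over the same days, with erythroid markers (*Hbb-bh1*, *Hba-x*, *Hbb-y*, *Gata1* and *Klf1*) at 7.70 to 16.6 TPM on day 6 and 989 to 4628 TPM on day 8, and parietal endoderm and fibroblast markers (*Sparc*, *Col1a1*, *Col3a1* and *Thbd*) at 184 to 249 and 785 to 1791 TPM. Their part in the changes was not tested. Without replicate 2 or without replicate 3 of day 6 the count was 7, since *Adm*, *Eno2* and *Ndrg1* were lost in both cases, *Hk1* in the first and *P4ha2* in the second; *Hk1*, *Eno2* and *Ndrg1* were also lost without replicate 2 of day 8 and *Eno2* without replicate 3.

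The clones had 5 genes that rose and 0 that fell from day 6 to day 8, where 4.57% of all genes were called higher and 1.62% lower. These were *Vegfa* (1.46 ± 0.25), *Eno2* (1.44 ± 0.27), *P4ha2* (1.24 ± 0.36), *P4ha1* (1.23 ± 0.29) and *Pfkfb3* (1.03 ± 0.24). The *Pfkfb3* call ended with the replicate block (0.91), with rescaling (0.94) and without replicate 2 of ΔK9.2 on day 6 or day 8, and the *P4ha2* call without replicate 3 of ΔK9.1 on day 6 (adjusted p = 0.0801). *Epas1* joined the genes that rose on the log2(TPM + 0.1) scale (1.35, adjusted p = 0.00592) and without replicate 3 of ΔK9.1 on day 8 (1.18), replicate 1 of ΔK9.2 on day 8 (1.10) or replicate 2 of ΔK9.2 on day 6 (1.02). *Aldoc* joined them without replicate 3 of ΔK9.1 on day 6 (1.06), replicate 1 of ΔK9.2 on day 8 (1.10) or replicate 3 of ΔK9.2 on day 6 (1.10). With replicates 2 and 3 only on every day both joined, and so did *Adm* (1.10), so that 8 genes rose. For the difference of change against E14Tg2a 0 of 40 genes were called (2 at an unadjusted p under 0.05, against 1704 of all 16336), where 0.331% of all genes were. *Slc2a1* was called in it (-1.17, adjusted p = 0.0156) when replicate 2 of ΔK9.1 on day 6 was left out. Pluripotency markers in the clones summed to 1470 to 1870 TPM on day 6 and 321 to 884 TPM on day 8. Parietal endoderm and fibroblast markers summed to 55.4 to 87.9 and then 156 to 330 TPM, and erythroid markers to 1.22 to 15.3 and then 1.94 to 1800 TPM. Their part in the clone changes was not tested.

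Over the whole course, day 8 against day 0, 11 of the 40 genes rose and 4 fell in E14Tg2a, where 15.9% of all genes were called higher and 11.0% lower. The share of the 40 that rose, 11 of 40, was above that of all genes and the share that fell was near it. Those that rose were *Adm* (2.67 ± 0.49), *P4ha1* (1.90 ± 0.36), *Slc16a1* (1.66 ± 0.16), *P4ha2* (1.63 ± 0.46), *Pfkfb3* (1.48 ± 0.30), *Slc16a3* (1.36 ± 0.24), *Slc2a1* (1.25 ± 0.19), *Vegfa* (1.14 ± 0.31), *Pfkfb4* (1.09 ± 0.33), *Ndrg1* (1.07 ± 0.35) and *Ddit4* (1.05 ± 0.28). They are carriers of glucose and lactate, enzymes of fructose-2,6-bisphosphate and genes of the hypoxia arm, and no enzyme of the chain from glucose to lactate is among them. *Slc16a1*, a monocarboxylate carrier, went from 42.9, 38.9 and 38.3 TPM on day 0 to 130.3, 115 and 143 TPM on day 8, with 118, 60.5 and 84.7 TPM on day 4 and 83.7 and 102 TPM on day 6. The call of *Ddit4* ended without replicate 2 or 3 of day 0, without replicate 1 of day 8 and with rescaling (0.97), and that of *Ndrg1* without replicate 2 or 3 of day 0 or replicate 2 of day 8 and with rescaling. Those of *Pfkfb4* (without replicate 3 of day 0 or 2 of day 8) and *Vegfa* (0.91 without replicate 3 of day 0) ended too. *Hk1* passed as lower without replicate 3 of day 0 or 2 of day 8, *Egln1* as higher without replicate 1 of day 0 or 3 of day 8, and *Eno2* as higher without replicate 1 of day 8. Over these days pluripotency markers in E14Tg2a summed to 2949 to 3433 and then 151 to 299 TPM. Mesoderm markers summed to 2.42 to 6.10 and then 596 to 667 TPM, and erythroid markers to 1.17 to 2.02 and then 989 to 4628 TPM. The part of this shift in the changes was not tested.

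The 4 that fell are the enzymes *Ldhb* (-2.20 ± 0.23, adjusted p = 1.42e-08), *Pfkp* (-2.11 ± 0.31, adjusted p = 2.03e-06) and *Hk2* (-1.56 ± 0.18, adjusted p = 8.54e-08) and the kinase *Pdk1* (-1.27 ± 0.18, adjusted p = 1.77e-06). *Hk2*, the hexokinase of muscle and of proliferating cells, stood at 173, 181 and 163 TPM in ES cells, 80.0, 112 and 106 TPM in day 4 aggregates, 69.9 and 76.9 TPM on day 6 and 66.1, 58.5 and 50.2 TPM on day 8. Each of these genes had no overlap between its day 0 and day 8 libraries, and all 4 calls held under every alternative tried. In the clones 3 genes rose and 4 fell, where 10.7% of all genes were called higher and 10.4% lower. *Adm* (1.40 ± 0.35), *Pfkfb3* (1.29 ± 0.21) and *Ddit4* (1.23 ± 0.19) rose, and *Pfkp* (-2.33 ± 0.22), *Ldhb* (-1.67 ± 0.16), *Hk1* (-1.62 ± 0.18) and *Hk2* (-1.32 ± 0.13) fell. Pluripotency markers in the clones summed to 2842 to 3300 TPM on day 0 and 321 to 884 TPM on day 8. Mesoderm markers summed to 4.30 to 6.01 and then 145 to 681 TPM, and the part of this shift in the changes was not tested.

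Within enzyme families the shares of the isoform genes shifted, given here as percentages of summed TPM with no test. In E14Tg2a *Pfkp* made up 52.5% ± 0.39 (SD, n = 3) of phosphofructokinase transcripts on day 0 and 27.6% ± 4.01 (n = 3) on day 4, followed by 16.5% ± 0.21 (n = 2) and 21.4% ± 2.06 (n = 3) on days 6 and 8. The share of *Pfkl*, the liver type, was 42.2%, 58.3%, 70.9% and 62.8%, and that of *Pfkm* went from 5.32% ± 0.64 on day 0 to 14.1% ± 1.84 on day 4. The summed level of the 3 genes went from 438 TPM on day 0 to 246 TPM on day 8.

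*Ldhb*, the heart-type subunit of lactate dehydrogenase, made up 22.5% ± 4.02, 28.3% ± 3.60, 9.35% ± 0.73 and 5.25% ± 0.81 of the family in E14Tg2a on the 4 days in turn. *Ldha* was the major form on every day, at 2110.0, 1867 and 1884 TPM in ES cells, 2040.0, 1989 and 2233 TPM in day 4 aggregates, and 2724 and 2744 TPM and then 2776, 1860.5 and 2057 TPM after plating. It was not called in any of the 4 comparisons between days in E14Tg2a. The hexokinase sum went from 207 TPM to 77.1 TPM from day 0 to day 8, with *Hk2* at 83.5% ± 2.51 and 75.7% ± 6.11 of it. *Aldoa* kept 97.6% to 98.9% of its family and *Eno1* 98.2% to 99.6% in the E14Tg2a group means.

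*Pdk1* was 77.1% ± 2.61 of the *Pdk1* and *Pdk3* sum on day 0 and 57.3% ± 4.85 on day 8, while *Pdk3* itself stayed between 22.1 and 28.6 TPM in all E14Tg2a libraries. *Epas1* was the minor alpha subunit, with 15.4% ± 2.56 of the sum with *Hif1a* on day 0, a low of 4.81% ± 0.34 on day 6 and 14.6% ± 0.75 on day 8. In the 6 clone libraries of day 8 *Epas1* made up 1.93% to 10.5%, all below the E14Tg2a range of 13.9% to 15.4%. The 4 clone libraries of day 6 were lower too, at 1.29% to 2.4% against 4.57% to 5.04%. On day 0 those of ΔK9.1 were at 8.87% to 12.9%, below the 13.2% to 18.2% of E14Tg2a. ΔK9.2 on day 0 (11.1% to 16.7%) and the clones on day 4 (4.56% to 15.1%) overlapped with E14Tg2a.

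**Figure D4:**
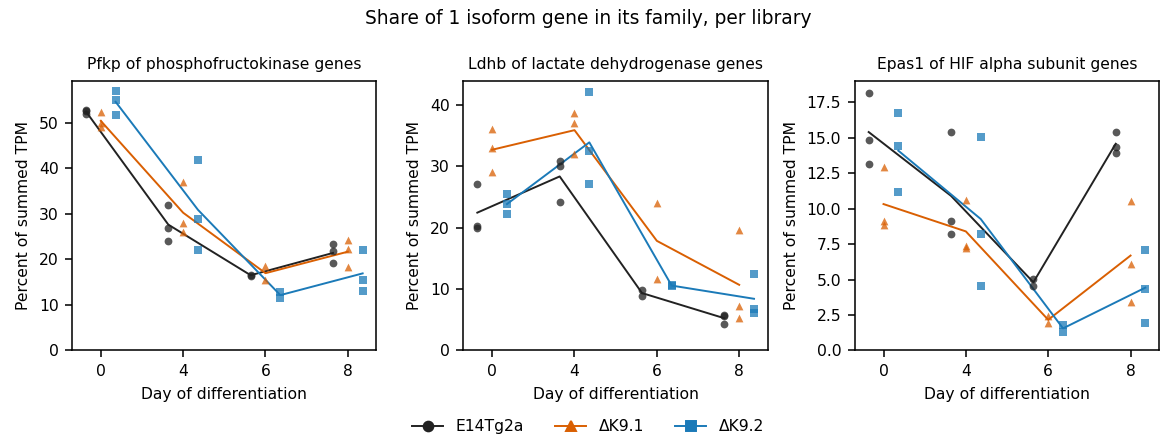
Percent of the summed TPM of a family taken by *Pfkp* (of *Pfkl*, *Pfkm* and *Pfkp*), *Ldhb* (of *Ldha* and *Ldhb*) and *Epas1* (of *Hif1a* and *Epas1*) in every library, against the day of differentiation; points are libraries, lines join group means, and colours and symbols mark the 3 lines. *Pfkp* drops after day 0 and *Ldhb* after day 4 in all lines, and on day 8 *Epas1* is at 13.9% to 15.4% in E14Tg2a and lower in every clone library.

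The transcript of *Hif1a* moved by less than the fold minimum between all pairs of days tested. In E14Tg2a it stood at 43.0, 46.0 and 40.8 TPM in ES cells, 34.5, 46.4 and 44.3 TPM in day 4 aggregates, 58.4 and 58.1 TPM on day 6 and 66.9, 74.3 and 54.2 TPM on day 8, and its change from day 0 to day 8 was 0.57 ± 0.15, adjusted p = 0.00222. HIF-1α is regulated mainly as a protein, which was not measured. *Egln3*, a hydroxylase that is itself a hypoxia-induced gene, stood at 44.2, 34.3 and 24.0 TPM in ES cells and 50.5, 56.9 and 59.7 TPM on day 4, then at 24.5 and 23.9 TPM on day 6 and 51.6, 34.9 and 36.9 TPM on day 8. Its fall from day 4 to day 6 was called (-1.17 ± 0.32, adjusted p = 0.00953), with the limits given above. *Pgk1*, an enzyme often used as a hypoxia reporter, was at 1525, 1350.5 and 1229 TPM in ES cells and 1923, 1389 and 1556 TPM on day 4, then at 1001 and 1256 TPM on day 6 and 1636, 1260.0 and 1523 TPM on day 8, and was not called in any comparison.

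*Vegfa* was not called from day 0 to day 4. It stood at 62.6, 46.2 and 32.6 TPM on day 0 and 53.7, 25.8 and 28.2 TPM on day 4 in E14Tg2a (-0.41 ± 0.31, adjusted p = 0.356), and in the clones the change was -0.78 ± 0.22, adjusted p = 0.00483. Its highest E14Tg2a levels were on day 8, where all 3 libraries lay above every earlier one. Genes that were called in none of the 16 comparisons were *Pfkl*, *Aldoa*, *Tpi1*, *Gapdh*, *Pgk1*, *Pgam1*, *Eno1*, *Pkm*, *Ldha*, *Pdk3*, *Hif1a*, *Egln1*, *Higd1a*, *Kdm3a* and *Mxi1*. Reads of *Aldoa*, *Gapdh*, *Pgk1*, *Pgam1* and *Ldha* can be shared with processed pseudogenes and those of *Eno1* with its copy *Eno1b*, so the levels of these genes are uncertain to that extent.

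Few of the 40 genes were called between the clones and E14Tg2a before day 8. On day 0 none was called by limma in either direction, 0 had an unadjusted p under 0.05 against 2871 of all 16336 genes, and the changes ran from -0.47 to 0.39, where 2.68% of all genes were called higher and 1.21% lower in the clones. In ΔK9.1 taken alone 0 of the 40 were called on day 0, and 7 had no overlap with E14Tg2a. Among the 7, *Epas1* was at 5.14, 3.5 and 3.75 TPM against 9.56, 6.97 and 7.11 TPM in E14Tg2a. In ΔK9.2 *Epas1* was at 8.39, 7.27 and 5.51 TPM on day 0, which overlapped. On day 4 only *Slc16a1* was called. It stood at 118, 60.5 and 84.7 TPM in E14Tg2a and at 44.7 to 59.2 TPM in the 6 clone libraries, which did not overlap (-0.71 ± 0.14, adjusted p = 0.00511). Of all genes 0.441% were called higher and 2.36% lower on that day. Fitted on the day 4 libraries alone its adjusted p was 0.137. Primitive and visceral endoderm markers summed to 83.3 to 694 TPM in E14Tg2a and 3.65 to 159 TPM in the clones on day 4, and their part in the *Slc16a1* difference was not tested. On day 6 none of the 40 was called by limma and 4 had an unadjusted p under 0.05 (*Epas1*, *Gpi1*, *Pdk1* and *Slc16a1*), against 2781 of all 16336 genes, where 1.10% of all genes were called higher and 2.72% lower. *Slc16a1* was called on day 6 without replicate 1 or 2 of E14Tg2a on day 4 (-0.50, adjusted p = 0.0421 and 0.0428), and *Pdk1* without replicate 2 of ΔK9.1 on day 6 (0.84, adjusted p = 0.00171).

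On day 8 the lines differed in the 40 genes and beyond them, with similar shares called, 8 of 40 and 3050 of all 16336 genes. In the clones 7 of the 40 genes were lower and 1 was higher, where 11.8% of all genes were called lower and 6.84% higher. These shares were not tested against each other. The lower genes were *Epas1*, *Adm*, *P4ha1*, *P4ha2*, *Slc2a1*, *Slc16a1* and *Pfkm*, and *Ldhb* was higher. *Slc2a1* stood at 684, 679 and 595 TPM in E14Tg2a, at 321, 309.5 and 325 TPM in ΔK9.1 and at 299, 344 and 387 TPM in ΔK9.2 (-0.98 ± 0.17, adjusted p = 0.000241). *Slc16a1* stood at 130.3, 115 and 143 TPM in E14Tg2a, 68.6, 85.2 and 59.0 TPM in ΔK9.1 and 83.0, 71.8 and 67.8 TPM in ΔK9.2 (-0.83 ± 0.14, adjusted p = 0.000183). Both carriers had all 6 clone libraries below all 3 of E14Tg2a, and each clone was called alone, with -1.03 and -0.93 for *Slc2a1* and -0.87 and -0.79 for *Slc16a1* in ΔK9.1 and ΔK9.2.

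*Epas1* was at 12.2, 12.5 and 8.77 TPM in E14Tg2a against 3.78, 7.26 and 1.33 TPM in ΔK9.1 and 1.08, 4.07 and 2.34 TPM in ΔK9.2 (-1.64 ± 0.31, adjusted p = 0.000538). *P4ha1* was at 108, 165 and 145 TPM against 72.3, 73.3 and 34.5 and 41.5, 82.0 and 52.5 TPM (-1.26 ± 0.31, adjusted p = 0.00560). For both genes the clone libraries lay below those of E14Tg2a without overlap. *Ldhb* was at 125, 111 and 126 TPM in E14Tg2a, 163, 156 and 344 TPM in ΔK9.1 and 204, 199 and 262 TPM in ΔK9.2 (0.81 ± 0.20, adjusted p = 0.00560), again without overlap and with the highest value in replicate 3 of each clone. *Adm* (4.46, 15.4 and 17.8 TPM against 1.23 to 7.86 TPM, -1.58 ± 0.43, adjusted p = 0.0105), *P4ha2* (75.7, 102 and 58.8 TPM against 17.3 to 61.9 TPM, -1.12 ± 0.40, adjusted p = 0.0476) and *Pfkm* (32.5, 45.1 and 35.6 TPM against 27.9 to 35.1 TPM, -0.31 ± 0.11, adjusted p = 0.0454) had groups that overlapped. On the scale of log2(TPM + 0.1) the calls of *Adm* (adjusted p = 0.0652) and *P4ha2* (0.0515) ended.

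**Figure D5:**
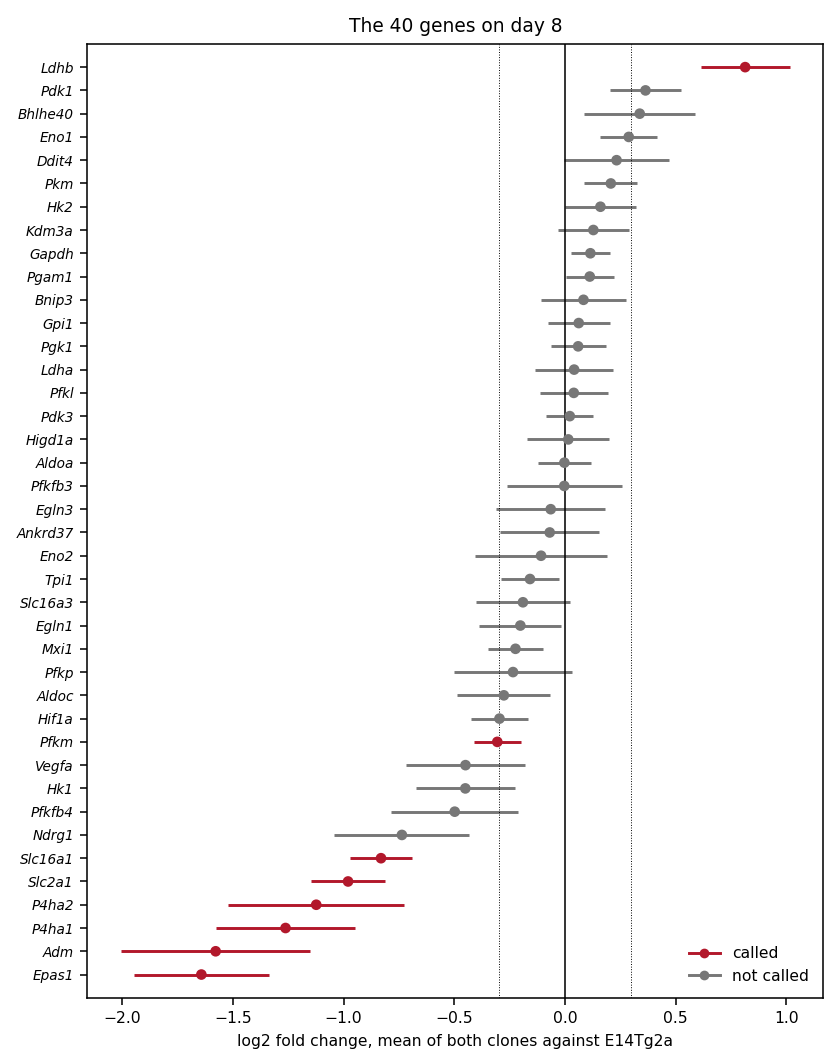
Log2 fold change on day 8 of both clones, as their mean, over E14Tg2a for each of the 40 genes, sorted, with bars of 1 SE on each side; red marks called genes and the dotted lines the fold minimum of 0.3. *Epas1* and *Adm* lie lowest, near -1.6, *Ldhb* is the only called gene to the right of 0, and most enzymes from glucose to lactate lie within the dotted lines.

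The calls of *Slc2a1*, *Slc16a1* and *Epas1* held whichever library was left out. Without replicate 2 of E14Tg2a on day 8 the count was 3, as *Adm* (-1.35, adjusted p = 0.101), *Ldhb* (0.76, 0.0508), *P4ha1* (-1.13, 0.0587), *P4ha2* and *Pfkm* were lost, and without replicate 3 of that group it was 5, with *Adm* (-1.25, adjusted p = 0.0877), *P4ha2* and *Pfkm* lost. Without replicate 1 of that group the count was 10, with 6 lower and 4 higher, since *P4ha2* was lost and *Pdk1* (0.53), *Eno1* (0.48) and *Pkm* (0.40) were called higher. The *P4ha2* call ended without any of 21 single libraries and that of *Pfkm* without any of 16. Fitted on the 9 libraries of day 8 alone, 2 genes were called, *Slc2a1* and *Slc16a1*, and the adjusted p of *Epas1* was 0.0791 and of *P4ha1* 0.0696. *Pdk1* was called higher in ΔK9.1 alone (0.60, adjusted p = 0.0327) and not in ΔK9.2 (0.13, adjusted p = 0.711), and the difference of the clones was not tested. With the replicate block *Ndrg1* was called too (-0.74, adjusted p = 0.0236).

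Markers of other cell types differed between the same libraries. On day 8 primitive and visceral endoderm markers summed to 317 to 445 TPM in E14Tg2a and 24.0 to 127 TPM in the clones, parietal endoderm and fibroblast markers to 785 to 1791 and 156 to 330.4 TPM, pluripotency markers to 151 to 299 and 321 to 884 TPM, and cardiac and muscle markers (*Tnnt2*, *Myh6*, *Myl7*, *Actc1* and *Nkx2-5*) to 36.1 to 86.4 and 11.2 to 25.2 TPM, each without overlap. Endothelial markers (*Kdr*, *Pecam1*, *Cdh5* and *Tek*) summed to 64.8 to 130.4 TPM in E14Tg2a and 20.5 to 109 TPM in the clones. Erythroid markers summed to 989 to 4628 TPM in E14Tg2a and 1.94 to 1800.1 TPM in the clones, and replicate 2, which left 3 calls when it was left out of E14Tg2a, had the highest erythroid sum in each line. None of the markers of these lists was at 0 in all E14Tg2a libraries or in all clone libraries on day 8. The part of these cell types in the 8 differences was not tested.

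Set side by side, the courses of E14Tg2a and the clones differed by a test for *Slc16a1*. From day 0 to day 8 its change in the clones was smaller than in E14Tg2a (0.63 against 1.66, difference -1.04 ± 0.20, adjusted p = 0.00415), the 1 gene called of 40, where 2.55% of all genes were called lower and 0.508% higher for this difference. *Slc2a1* had a difference of -0.78 ± 0.24, adjusted p = 0.0491, below the fold minimum. With the replicate block *Ndrg1* was called as well (-1.13, adjusted p = 0.033), making 2. The *Slc16a1* call ended without replicate 3 of E14Tg2a or of ΔK9.1 on day 8 (-0.96 and -0.97) and with rescaling (-0.95), in each case at an adjusted p under 0.05. Without replicate 1 of E14Tg2a on day 0, the E14Tg2a library of that day with the highest *Adm*, *P4ha1* and *Ndrg1*, the differences of these 3 genes were called as well (-1.88, -1.45 and -1.49), and the count was 4. Without replicate 2 of ΔK9.1 on day 8 *Epas1* was called too (-1.39, adjusted p = 0.0257).

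Of the 87 further genes of these pathways that were fixed as lists, 82 are in the table. From day 0 to day 4 in E14Tg2a 2 rose (*Hkdc1*, a hexokinase-like gene, and *Emb*, a partner of lactate carriers) and 1 fell (*Angptl4*), where 3.67% of all genes were called higher and 4.07% lower. From day 4 to day 6 1 rose and 6 fell (5.19% and 4.14% of all genes), and from day 6 to day 8 8 rose and 0 fell (6.53% and 2.73%). From day 0 to day 8 13 rose and 9 fell, the same shares as the 15.9% and 11.0% of all genes. Among the 29 listed further HIF targets *Loxl2* (2.00) and *Anxa2* (1.89) rose over the whole course and *Angptl4* (-2.48) and *Ndufa4l2* (-2.06) fell. *Cited2*, listed as a gene of HIF control, rose as well (1.98). On day 8 16 of the 82 were lower and 4 higher in the clones, where 11.8% of all genes were called lower and 6.84% higher. The lower genes included *Loxl2* (-2.01), *Hkdc1* (-1.88), *Emb* (-1.22) and *Bnip3l* (-0.99), and the higher ones were *Pgam2* (1.11), *Bpgm* (0.45), *Pdp1* (0.41) and *Tigar* (0.40). *Loxl2* and *Bnip3l* lie at chr14:69609068-69695834 and chr14:66985239-67008877 (mm10), and *Bnip3l* was lower in the clones on days 0, 4 and 6 as well (-0.84, -0.82 and -1.26). None of the 40 genes lies on chromosome 14, but *Gata4* and *Sox7* of the endoderm markers and *Myh6* of the cardiac markers do.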

How the data were processed

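Stranded libraries from poly-A RNA were prepared and sequenced in paired ends by a service provider, and the authors aligned the reads with STAR to mm10 and estimated levels with RSEM; versions and the annotation are not given in the sources used here. They omitted libraries that were outliers in a principal component analysis. The deposited table holds TPM per gene and library for 16336 genes, with decimal commas, which were read as points, and 22 columns of the authors' own DESeq2 fold changes and adjusted p-values, which were not used. TPM does not give the depth of single libraries, so no counting interval was possible.

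Values were taken as log2(TPM + 1), without a filter on low values, and 1 linear model with a mean for each of 12 groups was fitted to all 33 libraries with limma 3.58.1 (trended prior) in R 4.3.3. TPM are not counts, so a count model was not used. Contrasts were tested between days within E14Tg2a and within the mean of both clones, as the difference between these changes, and between the lines on each day. P-values were adjusted by Benjamini-Hochberg over all genes. The fold minima of 1 and 0.3 are those of the study, which used 1 for each day against undifferentiated cells and 0.3 for undifferentiated cells, with both clones passing separately; here 1 was also applied to successive days and to differences of change, and 0.3 to the mean of both clones on every day. The code was tested on simulated data. Sums, shares and markers were computed with Python 3.11.15 and pandas 2.3.3.

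Replicates came from 3 independent differentiations with the lines run in parallel, so the replicate number pairs libraries of a day across lines. Residuals from the group means had a median r of 0.259 over 33 such pairs (31 above 0.1). It was 0.086 over 45 pairs of the same line and number on other days. The median of -0.181 over 60 pairs of other numbers is not a separate contrast, since residuals cancel out within a group. Alternatives were a pseudocount of 0.1, a filter on low values, no trend, median ratio rescaling, the replicate block, other fold minima, a fit on the compared libraries only, leaving out each library and, added after the data were seen, replicates 2 and 3 only.

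The 40 genes and all lists were chosen with earlier results of these data known. Genes named with per-library values were Hif1a, Epas1, Slc2a1, Hk2, Pgk1, Ldha, Ldhb, Vegfa, Egln3 and, per comparison, up to 4 called genes in each direction whose groups did not overlap, by size of change. Sequences are from RefSeq (GRCm38.p6), and the upstream stretch of Ddit4 stops at an annotated start.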

Additional observations from a re-analysis of the deposited data

Results flagged for a closer look

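For 1 of the 40 genes the course of the clones from day 0 to day 8 was called as different from that of E14Tg2a by a test of the difference itself, where 2.55% of all genes were called lower and 0.508% higher. For *Slc16a1* the change in the clones minus that in E14Tg2a was -1.04 (limma, adjusted p = 0.00415), and the call ended with rescaling (-0.95) and without replicate 3 of E14Tg2a or of ΔK9.1 on day 8 (-0.96 and -0.97). For *Slc2a1* the difference was -0.78 (adjusted p = 0.0491), which is below the fold minimum of 1 and was not called. All 6 clone libraries lay below the 3 E14Tg2a libraries on day 8 for both genes, and on day 0 neither gene was called between the lines.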

How the results depend on the processing

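Of 92 called results for single genes, 69 kept their call and direction under all alternatives other than leaving out a library. These include the fit on the compared libraries only, and the fit of replicates 2 and 3 only is not counted. Under every omission of 1 library 54 kept both, under all of these 49 did, and 0 reversed. Counts of called genes moved by over 1.5 times as follows. For the difference of change from day 0 to day 8 the count was 0 with median ratio rescaling and 2 with the replicate block or with no fold minimum. With the compared libraries fitted alone, the count between lines was 0 on day 4 and 2 on day 8, and with a fold minimum of 1 it was 0 and 4. With no fold minimum the counts in E14Tg2a were 18 (day 4 against day 0), 22 (day 6 against day 4) and 24 (day 8 against day 0), and in the clones 20, 26 and 26, with 13 for day 8 against day 6; of all 16336 genes 4287, 4025 and 9519 then passed in E14Tg2a and 7724, 7114, 10303 and 5276 in the clones. With replicates 2 and 3 only on every day, an alternative added after the data were seen, 8 genes passed from day 6 to day 8 in the clones. The ratio of summed hypoxia-induced genes on day 4 to day 0 went from 1.82 to 1.39 in E14Tg2a and from 1.64 to 1.26 in the clones without *Ddit4*. Leaving out 1 library gave 6 to 10, 8 to 14, 7 to 11 and 12 to 16 genes for day 4 against 0, 6 against 4, 8 against 6 and 8 against 0 in E14Tg2a, and 5 to 6, 9 to 16, 4 to 7 and 7 to 9 in the clones. The differences of change gave 0 to 1, 0 to 0, 0 to 1 and 0 to 4, and the lines on days 0, 4, 6 and 8 gave 0 to 0, 1 to 1, 0 to 1 and 3 to 10. On day 8 *Pdk1*, *Eno1* or *Pkm* passed as higher or *Hif1a* as lower in the clones on the omission of 1 of 5 libraries. With the replicate block, beyond the calls given with the results, no other call of the 40 genes was lost. The causes of these shifts were not tested. The 2 libraries per line on day 6 limit the precision, and the depth of single libraries is not in the values.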

Other observations

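Replicate 1 had the highest level of its group in all 3 lines for 21 of the 40 genes on day 0, 18 on day 4 and 7 on day 8. By line, in the order E14Tg2a, ΔK9.1 and ΔK9.2, replicate 1 was the highest for 30, 26 and 26 of the 40 on day 0, where it was the highest for 53.2%, 40.6% and 41.4% of all genes. On day 4 the counts were 22, 33 and 27 (38.4%, 44.6% and 49.3% of all genes), and on day 8 they were 23, 24 and 9 (38.2%, 29.9% and 35.1%). On day 0 *Adm* was at 3.34 TPM in replicate 1 of E14Tg2a and at 0.309 and 0.142 TPM in the others. Primitive and visceral endoderm markers summed to 75.9 TPM in that library and 6.31 and 8.62 TPM in the others. Parietal endoderm and fibroblast markers summed to 300 TPM against 76.3 and 74.9 TPM. The part of these cell types in the high levels of replicate 1 was not tested.

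Among the 82 further listed genes, whose calls from day 0 to day 8 in E14Tg2a (13 higher and 9 lower) had the same shares as all genes, some were chosen after their values were seen. *Mpc1*, a subunit of the mitochondrial pyruvate carrier, fell from day 0 to day 8 in E14Tg2a (-1.65) and in the clones (-1.69), and so did *Tigar*, a fructose-2,6-bisphosphatase (-1.82 and -1.70). *Eno3*, the muscle enolase (1.75 and 1.95), and *Pgam2*, the muscle phosphoglycerate mutase (1.81 and 2.35), rose. *Trf*, the iron carrier transferrin, was lower in the clones on day 8 (-2.37), and its course from day 0 to day 8 differed from that in E14Tg2a by -2.65.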
